A study of Homo sapiens with 6 samples.

Results

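The genes that hold the mitotic spindle together and then divide the cell were examined as a group of 10, built around NUSAP1. The members were NUSAP1, TPX2, HMMR, DLGAP5, ASPM and CKAP2, which act on spindle microtubules, and PRC1, ANLN, ECT2 and RACGAP1, which act at the central spindle and the cleavage furrow. They were found by exact symbol among the 26822 gene symbols of the deposited RNA-seq table, where each of the 10 was present in 1 row. MCF10A, an established and non-tumorigenic line of human breast epithelial cells, was transfected for 72 hours with 30 nM of a non-targeting siRNA (siNT) or of siRNAs against PAX9 (siPAX9), a transcription factor of RNA polymerase II. RNA came from 3 samples of each group, all of this 1 cell line, and poly(A)+ libraries were sequenced. The table gives 1 value per group for each locus, in FPKM, a count of fragments scaled to transcript length and to library size. It holds no value per sample and no counts, so no spread between replicates, no test and no fragment number behind a value could be computed, and every difference given here compares 2 pooled values.

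During mitosis, microtubules grow from the poles and from around the chromosomes, and a set of binding proteins bundles them, anchors them at the poles and ties them to the chromosomes. TPX2 and HMMR help to nucleate and focus these microtubules, DLGAP5 (also called HURP) and NUSAP1 bundle them near chromosomes, ASPM works at the poles and CKAP2 stabilises the polymer. After the chromosomes part, PRC1 crosslinks the antiparallel microtubules of the central spindle, RACGAP1 forms centralspindlin with the kinesin KIF23 and recruits ECT2, and ECT2 activates RHOA so that a ring of actin and myosin closes, held to the membrane by the scaffold ANLN. Most of these mRNAs are made anew in each cycle and peak in G2 and mitosis. Their promoters are known for a short element called CHR and for CCAAT boxes, which recruit the DREAM and MuvB complexes and NF-Y.

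The promoters of the 10 genes were read first. RefSeq windows on GRCh38.p14, from 250 bases before to 50 after the start site, were matched by symbol for 8 of the 10 members, all but TPX2 and RACGAP1. The last 150 bases before the start site are printed for 6 of them, 5′ to 3′ on the strand of the gene. They show the pair with near-equal levels (NUSAP1 at chr15:41332731-41332880, plus strand, and PRC1 at chr15:90994536-90994685, minus strand), the pair lowest in siPAX9 relative to siNT (HMMR at chr5:163460482-163460631, plus strand, and ASPM at chr1:197146670-197146819, minus strand) and the pair with the smallest differences (ECT2 at chr3:172750576-172750725, plus strand, and CKAP2 at chr13:52455838-52455987, plus strand). Capitals mark the CHR-type letters TTTGAA or TTTAAA, the CCAAT box and their reverse complements (TTCAAA and ATTGG).
NUSAP1: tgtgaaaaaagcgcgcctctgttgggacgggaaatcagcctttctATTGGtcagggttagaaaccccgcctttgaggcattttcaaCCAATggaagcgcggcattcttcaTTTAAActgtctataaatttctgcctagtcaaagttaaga
PRC1: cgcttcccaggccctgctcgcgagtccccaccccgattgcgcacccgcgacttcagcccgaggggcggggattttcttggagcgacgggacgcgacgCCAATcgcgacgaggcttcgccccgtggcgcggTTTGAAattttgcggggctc
HMMR: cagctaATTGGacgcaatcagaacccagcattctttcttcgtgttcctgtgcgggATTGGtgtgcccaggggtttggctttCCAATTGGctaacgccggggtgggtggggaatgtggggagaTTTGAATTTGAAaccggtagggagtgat
ASPM: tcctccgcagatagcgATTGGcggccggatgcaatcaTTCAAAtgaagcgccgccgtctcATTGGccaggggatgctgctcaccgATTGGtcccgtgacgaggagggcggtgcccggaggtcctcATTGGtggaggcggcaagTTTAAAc
ECT2: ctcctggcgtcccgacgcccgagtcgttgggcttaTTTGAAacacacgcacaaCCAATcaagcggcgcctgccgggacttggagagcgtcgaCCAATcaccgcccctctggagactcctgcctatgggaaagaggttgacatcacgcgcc
CKAP2: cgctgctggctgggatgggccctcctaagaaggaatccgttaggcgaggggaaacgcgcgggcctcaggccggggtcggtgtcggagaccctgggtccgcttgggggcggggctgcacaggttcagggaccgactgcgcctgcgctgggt

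TTTGAA, searched on both strands of these windows, was found in 7 of the 8 members with a window, against 10.6% of the 13755 windows of genes with a mean FPKM of at least 1 and 15.2% of all 35116 windows. It was in NUSAP1, PRC1, ANLN, HMMR, ASPM, DLGAP5 and ECT2, and CKAP2 had no match to any of the letters searched. CCAAT was found in 6 of the 8, against 35.2% of the windows of expressed genes, and the 6 genes that held both were ASPM, DLGAP5, ECT2, HMMR, NUSAP1 and PRC1, against 4.30% of those windows. In HMMR the matches to TTTGAA lay side by side, with first bases 28 and 22 bases before the start site, and in ANLN they lay back to back at 26 and 20 bases before it. In PRC1 the match began 20 bases before the start site and the single CCAAT 53 bases before it. NUSAP1 held TTTAAA 40 bases before the start site and TTTGAA only after it, beginning 14 bases past it. TTTAAA, which reads the same on both strands, was found in NUSAP1 and ASPM, against 8.47% of expressed windows. The E2F-type letters (TTTGGCGC or TTTCGCGC or TTTCCCGC or TTTGCCGC) were found only in NUSAP1 among the 8, against 5.02% of expressed windows. Matches of TTTGAA and CCAAT shared bases in none of the printed promoters, although in HMMR a CCAAT and an ATTGG overlapped each other. ECT2 has a further RefSeq window that starts at base 172750752 of chromosome 3, against 172750476 for the one printed, and it held TTTGAA and no CCAAT. The windows of the members ranged from 50.3% to 72.7% G and C, and the median over expressed windows was 64.7%. Members were counted as genes with a match in any of their 9 windows, while the shares count single windows. The part of base composition in these shares was not tested. These are matches of letters, and binding at them was not measured.

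**Figure D1:**
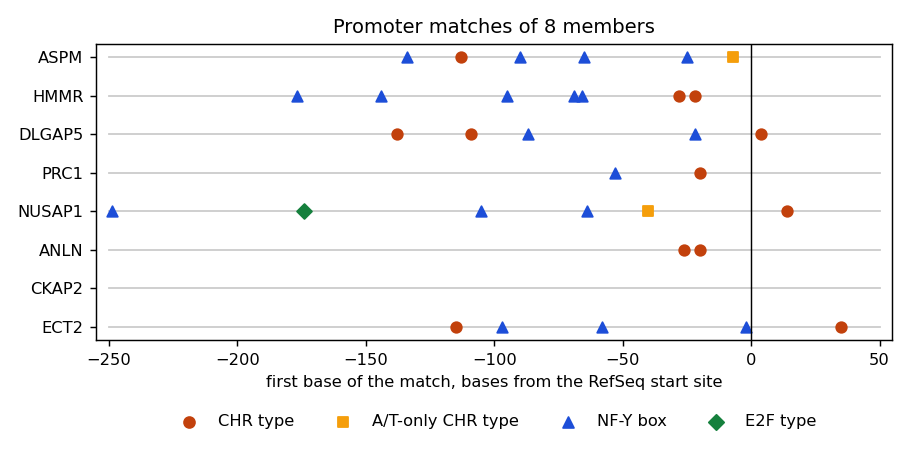
Position of promoter matches in 8 of the genes, as the first base of each match in bases from the RefSeq start site (horizontal axis, start site at 0), with 1 line per gene and the upstream window for ECT2. CHR type stands for the letters TTTGAA, A/T-only CHR type for TTTAAA, the NF-Y box for CCAAT and E2F type for the letters named in the text. A match to TTTGAA lay in 7 of the 8 windows, and CKAP2 had none of the 4 kinds.

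The knockdown itself was read from PAX9. On the 2 pooled values, PAX9 was at 2.80 FPKM in siNT and 0.325 in siPAX9, which is 11.6% of the control level. Its deposited locus, which can be wider than the gene, is chromosome 14, 37126773 to 37642998 on UCSC hg19, the build of the table. Breast epithelial markers were present in both groups, with the basal keratin KRT5 at 1558 FPKM in siNT and 1807 in siPAX9, KRT17 at 1718 and 2088 and KRT14 at 31.4 and 40.9. The other 5 of the 8 listed markers differed in both directions. The adhesion gene CDH1 was 2.74-fold higher in siPAX9, at 45.3 and 124.4, and EPCAM was 2.05-fold lower, at 34.3 and 16.7, while KRT18 was at 211.7 and 118.9, TP63 at 35.4 and 25.3 and EGFR at 64.3 and 58.1. Of 9 markers of other cell types, the leukocyte genes PTPRC and CD3E, the endothelial VWF and the fibroblast collagen COL1A2 were under 0.1 FPKM in both groups, with CD3E listed at 0 in both and COL1A2 at 0 in siNT. Others of the same cell types were not near 0. The endothelial PECAM1 was at 2.58 in siNT and 0.495 in siPAX9, the fibroblast collagen COL1A1 at 0.454 and 4.13, and DCN, a proteoglycan of fibroblasts, at 5.85 and 37.9. The macrophage marker CD68 was at 3.38 and 3.77 and the estrogen receptor ESR1 at 0.056 and 0.317, and the summed level of the 9 was 12.3 and 46.7. Their part in the results was not tested.

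All 10 spindle and cytokinesis genes were lower in siPAX9 than in siNT, and 7 of the 10 were at least 2-fold lower. ASPM, HMMR and DLGAP5 were at 22.7% to 25.4% of their siNT level, while RACGAP1, CKAP2 and ECT2 were at 51.7% to 60.1% of it. Over all 13264 genes with a mean FPKM of at least 1 in the 2 groups, 6.9% (915 genes) were at least 2-fold lower and 6.82% (904 genes) at least 2-fold higher. Of these 13264 genes, 55.3% were lower in siPAX9 by any amount. A gene can reach that mean through 1 group alone, and 182 of the 915 were below 1 FPKM in siPAX9 and 352 of the 904 below it in siNT, but all 10 spindle and cytokinesis genes were above 1 FPKM in both groups. The median log2 change of siPAX9 over siNT was -1.49 for the 10 genes and -0.07 for all genes. The summed level of the 10 was 169.96 FPKM in siNT and 65.6 in siPAX9, or 38.6% of it. In RNA from a whole culture, fewer cells in G2 and mitosis and less of these mRNAs per cell cannot be told apart. Markers of terminal squamous differentiation also differed between the groups. All 11 listed had the higher value in siPAX9, among them IVL (0.091 and 15.8 FPKM), SPRR1A (0.532 and 56.4), SPRR1B (3.18 and 333.9), SPRR2A (0.211 and 52.1), TGM1 (10.6 and 53.6), KRT10 (21.0 and 148.1) and KRT13 (0.018 and 4.67). SPRR3 was listed at 0 in siNT and was at 9.17 in siPAX9. KRT4 and LOR were also listed at 0 in siNT and were at 1.48 and 0.017 in siPAX9, and FLG was under 0.2 in both groups. The summed level of all 11 was 35.6 FPKM in siNT and 675 in siPAX9. Of the 11, 8 had a mean FPKM of at least 1. Among these, 7 were at least 2-fold higher, against 6.82% of all genes, and SPRR3 has no fold because its siNT value was 0. Of the 7, 4 reached that mean only through siPAX9, as did SPRR3. The part of differentiated cells in the levels of the spindle genes was not tested.

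**Figure D2:**
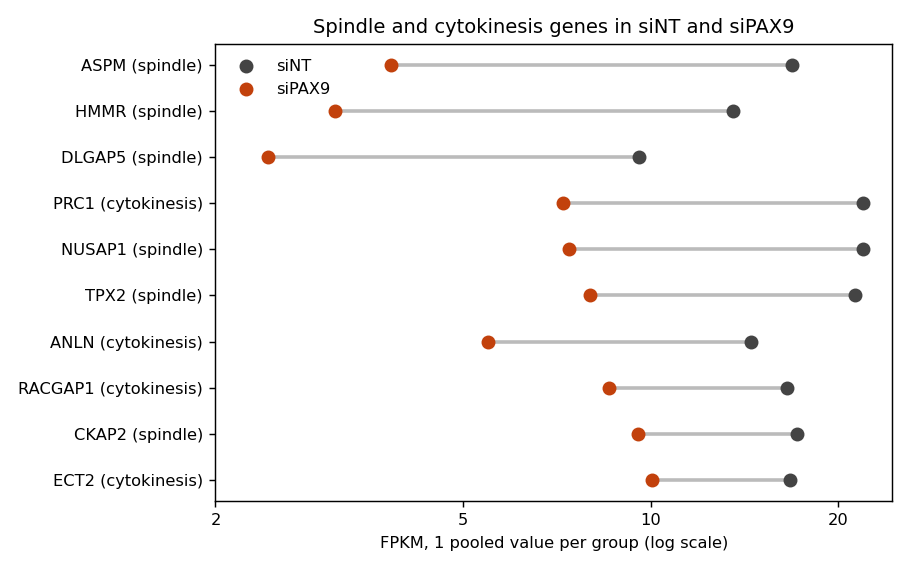
FPKM of the 10 genes in siNT (grey) and siPAX9 (orange) on a log scale, 1 pooled value per group, ordered by log2 change with the most negative at the top. No error bars are drawn because the table holds none. Every siPAX9 value lies below its siNT value, from 22.7% of it for ASPM to 60.1% for ECT2.

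Of the microtubule-binding members, ASPM, a large spindle pole protein whose loss causes small brain size in humans, had the most negative log2 change. It was at 16.9 FPKM in siNT and 3.82 in siPAX9, a log2 change of -2.14 or 4.41-fold lower. HMMR, the hyaluronan-mediated motility receptor that also serves as a spindle pole adaptor, was at 13.6 and 3.11, a log2 change of -2.12. DLGAP5, which bundles kinetochore fibres and was the least abundant of the 10, was at 9.58 in siNT and 2.43 in siPAX9, a log2 change of -1.98. These 3 were the only members below 4 FPKM in siPAX9, and with 1 added to each value their log2 changes were -1.89, -1.82 and -1.62.

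NUSAP1, the nucleolar and spindle-associated protein that crosslinks microtubules around chromatin, was at 21.9 FPKM in siNT and 7.39 in siPAX9. This was 33.8% of the control level, or 2.96-fold lower. TPX2, which activates the kinase AURKA on the spindle, was at 21.2 and 7.97, a log2 change of -1.41. CKAP2, which favours microtubule growth, stood apart from the other 5 microtubule-binding members with 17.2 FPKM in siNT and 9.54 in siPAX9, a log2 change of -0.85. As a subgroup, 5 of the 6 were at least 2-fold lower, against 6.9% of all genes, with a median log2 change of -1.77.

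Among the cytokinesis genes, the central spindle crosslinker PRC1 was at 21.9 FPKM in siNT and 7.23 in siPAX9, 3.03-fold lower. ANLN, the scaffold of the contractile ring, was at 14.5 and 5.47, 2.65-fold lower. The regulators of RHOA had smaller differences. RACGAP1, the GTPase-activating subunit of centralspindlin, was at 16.6 in siNT and 8.56 in siPAX9, or 1.93-fold lower, and ECT2, the RHOA exchange factor, was at 16.7 and 10.1, or 1.66-fold lower. So 2 of these 4 were at least 2-fold lower, against 6.9% of all genes, and the subgroup had a median log2 change of -1.18.

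The order of the 10 levels was not the same in the 2 groups. In siNT the genes spanned 2.28-fold, with PRC1, NUSAP1 and TPX2 at the top and DLGAP5 at the bottom, and in siPAX9 they spanned 4.13-fold. From the highest level down, ECT2 held place 6 in siNT and place 1 in siPAX9, CKAP2 places 4 and 2, RACGAP1 places 7 and 3, and PRC1 places 1 and 6. With 1 value per group, no neighbours in either order can be said to differ beyond their spread. In siNT the 10 genes lay between the 45.6 and 71.1 percent points of the levels of all genes, around and above the median gene at 10.9 FPKM, and in siPAX9 they lay between the 12.4 and 47.7 percent points, below the median gene at 10.8 FPKM. By log2 change, ASPM ranked 172 and ECT2 1622 from the lowest of the 13264 genes. Across the 10 genes, Spearman's rho was 0.45 between the siNT and siPAX9 levels and 0.27 between transcript length and log2 change, given as a description of points that share the same libraries.

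**Figure D3:**
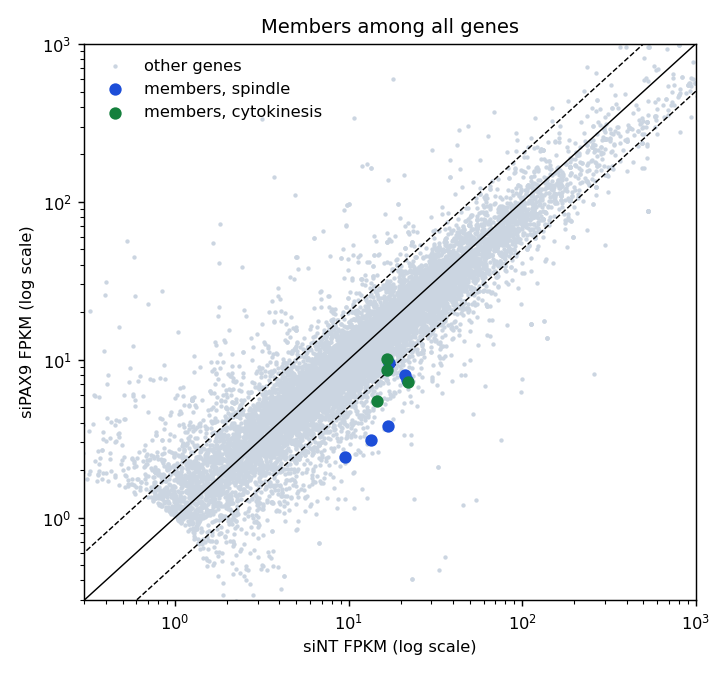
FPKM in siPAX9 (vertical, log scale) against FPKM in siNT (horizontal, log scale) for genes with a mean of at least 1 FPKM (pale points), with the 6 microtubule-binding genes in blue and the 4 cytokinesis genes in green. The solid line is equality and the dashed lines are 2-fold, and 7 of the 10 genes lie below the lower dashed line. Genes outside the axis limits are not drawn, and the point of NUSAP1 lies under that of PRC1.

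NUSAP1 and PRC1 had nearly the same pair of values. The distance of every other gene from NUSAP1 was taken over the 2 groups, as the straight-line distance between the log2 levels, among 11674 genes in single-symbol rows. PRC1 was the nearest of all at 0.033, and TPX2 was number 4 in that order at 0.117. The others among the nearest 5 were the small nucleolar RNA SNORA65 (21.3 FPKM in siNT and 7.74 in siPAX9), the alanine transaminase GPT2 (23.6 and 7.36) and CDC20, the activator of the anaphase-promoting complex (23.5 and 7.88). With 2 values per gene, a small distance says only that both levels were alike. The 9 other members ranged from PRC1 to DLGAP5, the farthest from NUSAP1 at 1.997.

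The partners of the members were then read as ratios within a group, which do not depend on the scaling between groups. TPX2 was at 1.24 times its partner AURKA in siNT and 1.26 times in siPAX9. RACGAP1 was at 1.65 times the level of its centralspindlin partner KIF23 in siNT and 1.83 times in siPAX9. PRC1 was at 5.68 times KIF4A, the kinesin it recruits, in siNT and 6.46 times in siPAX9, and ECT2 at 1.01 and 1.17 times RACGAP1. In these 4 pairs the ratio differed between the groups by at most 1.16-fold. Against RHOA, the GTPase that drives furrowing, which was at 216.7 FPKM in siNT and 179.2 in siPAX9, the ratio of ANLN in siPAX9 was 0.457 of that in siNT, and that of ECT2 was 0.727 of it. CKAP2 and its paralog CKAP2L had unequal differences, with CKAP2L at 5.55 FPKM in siNT and 1.49 in siPAX9, so that CKAP2 was at 3.10 times CKAP2L in siNT and 6.42 times in siPAX9. These ratios have no error, and the differences between pairs were not tested.

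Other genes of the spindle and of cytokinesis were read from lists of proteins that work beside the members. Over all genes, 6.9% were at least 2-fold lower and 6.82% at least 2-fold higher. Of 16 other central spindle and midbody genes, 13 were at least 2-fold lower and 0 at least 2-fold higher, with a median log2 change of -1.62. The lowest were CIT, the citron kinase of the midbody, at 3.64 FPKM in siNT and 0.827 in siPAX9 in a row shared with MIR1178, the midbody kinesin KIF14 at 9.82 and 2.30, and BIRC5, the survivin subunit of the chromosomal passenger complex, at 18.0 and 4.22. The highest was the transport kinesin KIF13A, at 7.25 and 7.80. KIF23 itself was at 10.1 in siNT and 4.68 in siPAX9. Of 25 other spindle assembly and pole genes, 15 were at least 2-fold lower, with a median of -1.14, among them the kinesins KIF15 (2.17 and 0.440 FPKM), KIF2C (8.90 and 2.13) and KIF18B (5.09 and 1.35). Of the genes counted as at least 2-fold lower in these lists, CIT and KIF15 reached a mean of 1 only through their siNT value. The microtubule plus-end protein CLASP1 was the highest of that list, at 16.4 in siNT and 21.0 in siPAX9.

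The lists of ESCRT-III and abscission genes and of contractile ring genes had medians near that of all genes, which was -0.07. Of 17 genes of ESCRT-III and abscission, the membrane-cutting complex that ends cytokinesis, 0 were at least 2-fold lower or higher, and the median log2 change was 0.06. The lowest of them, CHMP7, was at 14.98 FPKM in siNT and 9.08 in siPAX9, the ATPase VPS4B was at 28.1 and 23.1, the microtubule-severing SPAST at 6.93 and 6.41, and the highest, CHMP5, at 20.5 and 24.2. Of 20 contractile ring genes with a mean FPKM of at least 1, including 5 septins, 1 (5%) was at least 2-fold lower and 1 at least 2-fold higher. These shares are near those of all genes, 6.9% lower and 6.82% higher. The lower one was the formin DIAPH3, at 5.32 and 1.51, and the higher one was the myosin light chain MYL9, at 0.324 and 1.98, which reached a mean of 1 only through its siPAX9 value. The median of this list was -0.05, and it was 0.02 after centring on the median of all genes. ACTG1, a cytoplasmic actin, was at 925.7 and 566.0, and the myosin light chain MYL12A at 287.4 and 186.4.

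Of the 10 tubulin chains, the building blocks of microtubules, 0 were at least 2-fold lower or higher, with TUBA1B at 239.9 FPKM in siNT and 132.4 in siPAX9, TUBB at 235.7 and 156.99, TUBA1C at 190.0 and 131.98 and TUBA4A at 17.3 and 26.4. Tubulin genes are close paralogs that can share reads, which makes each of these values uncertain. Their median was -0.13. The 19 genes of augmin and the gamma-tubulin ring, which start new microtubules on the spindle and at the poles, had a median of -0.66. Of these 19, 1 was at least 2-fold lower, or 5.26%, near the 6.9% of all genes. It was HAUS4, at 15.3 and 7.24 in a row shared with MIR4707, and MZT1 (20.4 and 10.3) and HAUS5 (2.27 and 1.19) followed. HAUS3, in a row shared with POLN, was the highest, at 9.93 and 11.2. Of the 6 genes of the RAN system, which frees TPX2 and NUSAP1 from importins near chromosomes, RAN itself was 2.20-fold lower, at 184.6 in siNT and 84.1 in siPAX9, and the median was -0.57. RANBP1 was at 132.3 and 76.5, RCC1, the exchange factor of RAN, at 167.4 and 108.3 in a row shared with SNHG3, and RANGAP1 at 37.9 and 32.7.

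**Figure D4:**
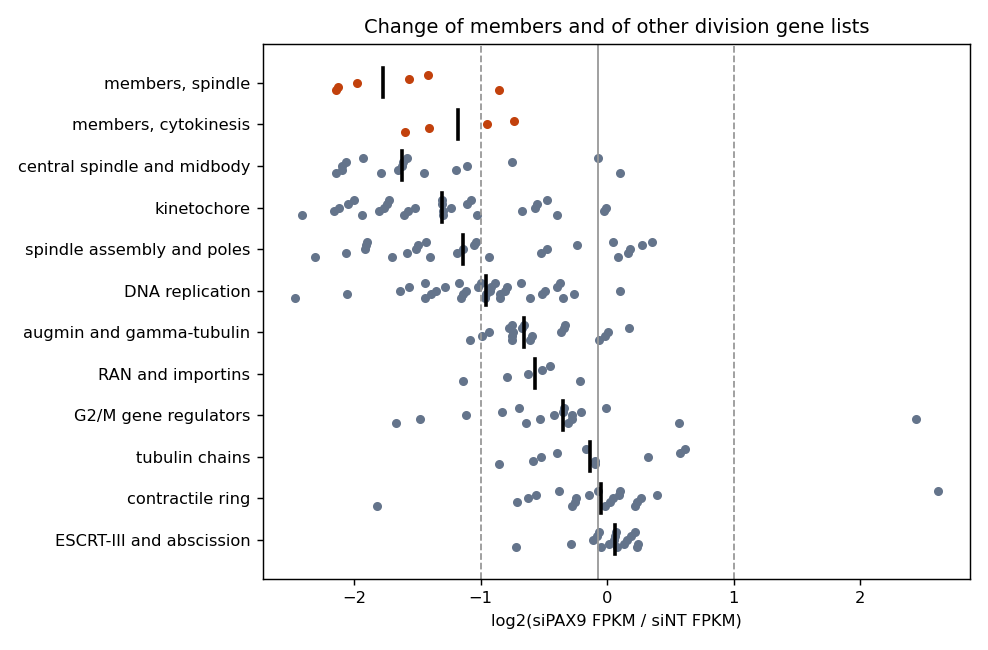
log2 change of siPAX9 over siNT for single genes (points) with a mean of at least 1 FPKM, in the 10 genes (orange) and in 10 other lists of division and cell cycle genes (grey). Black bars are list medians, the solid line is the median of all genes at -0.07 and the dashed lines are 2-fold. The top row and the central spindle, kinetochore and spindle assembly lists lie mostly left of the lower dashed line. In the row of cytokinesis genes 2 of 4 do, and the ESCRT-III list lies around 0.

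The kinetochore genes and the DNA replication genes, which serve other steps of the division cycle, were set beside the members. All 28 kinetochore genes were lower in siPAX9, against 55.3% of all genes. Of the 28, 21 were at least 2-fold lower, against 6.9% of all genes, with a median log2 change of -1.30. NUF2, of the NDC80 complex, was at 9.08 FPKM in siNT and 1.71 in siPAX9, the checkpoint kinase TTK at 8.11 and 1.82, and CENPM at 11.0 and 2.54, whereas the row of BUB1B, which is shared with PAK6, was at 12.4 and 12.2. Of 33 replication genes, 32 were lower and 14 at least 2-fold lower, with a median of -0.96. Of the genes at least 2-fold lower, CENPI in the kinetochore list and MCM10 and GINS4 in the replication list reached a mean of 1 only through siNT. Replication genes peak earlier in the cycle, and among them the licensing factor CDT1 was at 10.8 and 1.95, the primase subunit PRIM1 at 6.93 and 1.67, the clamp loader subunit RFC3 at 10.4 and 3.34 and POLE2 at 1.501 and 1.61. No test of the difference between lists was made, since each group has 1 value.

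Read in the same way as the promoters of the members, TTTGAA was present in 10 of the 15 matched genes of the central spindle and midbody list, in 13 of 22 of the spindle assembly list and in 13 of 24 of the kinetochore list. It was present in 3 of 4 matched genes of the RAN list, 5 of 14 of the G2/M regulators, 2 of 10 tubulin chains, 2 of 18 of the augmin and gamma-tubulin list, 1 of 13 of the ESCRT-III list, 1 of 13 of the contractile ring list and 0 of 28 of the replication list. The share over windows of expressed genes was 10.6%, counted per window, while the list counts are per gene. CCAAT ranged from 1 of 4 matched genes in the RAN list, 4 of 13 in the ESCRT-III list and 7 of 18 in the augmin and gamma-tubulin list to 10 of 13 in the contractile ring list and 13 of 15 in the central spindle and midbody list, against 35.2% of expressed windows. Between these lay 7 of 14 G2/M regulators, 16 of 28 replication genes, 15 of 24 kinetochore genes, 7 of 10 tubulin chains and 16 of 22 spindle assembly genes.

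Among 17 regulators of G2/M transcription, FOXM1 and MYBL2, activators of this gene group, were at 15.5 FPKM in siNT and 4.88 in siPAX9 and at 10.3 and 3.71. RBL1, the p107 subunit of DREAM, was at 3.35 and 1.55, and these 3 were the genes of the list that were at least 2-fold lower. CDKN1A, which encodes the CDK inhibitor p21, was 5.41-fold higher, at 69.0 in siNT and 373.2 in siPAX9. The 3 lower genes were 17.6% of the list, while over all genes 6.9% were at least 2-fold lower and 6.82% at least 2-fold higher. The median of the list was -0.35.

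The 10 genes lie on 9 chromosomes, with NUSAP1 and PRC1 both on chromosome 15. NUSAP1 spans 41624892 to 41673248 on the plus strand of chromosome 15 (hg19) in 11 exons of its canonical transcript in the GENCODE annotation, and PRC1 spans 91509267 to 91537881 on the minus strand in 15 exons. ASPM spans 197053257 to 197115824 of chromosome 1 on the minus strand and has the longest canonical transcript of the group, 10863 bases in 28 exons, and that of NUSAP1 is the shortest at 2263 bases. The other loci are TPX2 on chromosome 20 (30326904 to 30389603), HMMR on 5 (162887517 to 162921064), DLGAP5 on 14 (55614834 to 55658396), CKAP2 on 13 (53029033 to 53050766), ANLN on 7 (36363759 to 36493401), ECT2 on 3 (172468475 to 172539264) and RACGAP1 on 12 (50382945 to 50419340). All are protein-coding in GENCODE. The spans given are those of the deposited loci, which can differ from the annotated gene. For ANLN, GENCODE gives 36429430 to 36493400, and for NUSAP1 it gives 41612992 to 41673248.

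The genes next to the members were read to see whether whole regions were lower. Within 250 kb of the 10 loci lay 49 other named genes with a mean FPKM of at least 1, and 7 of them (14.3%) were at least 2-fold lower, 3 at least 2-fold higher, with a median log2 change of -0.07. Over all genes 6.9% were at least 2-fold lower, and the median was also -0.07. Of the 7, BLM and ASIC1 reached a mean of 1 only through siNT. Around NUSAP1, 0 of 9 were at least 2-fold lower or higher. OIP5, a centromere gene that begins 0.073 kb from the NUSAP1 locus and is read in the opposite direction, was at 5.70 FPKM in siNT and 3.54 in siPAX9, a log2 change of -0.69, and NDUFAF1, an assembly factor of respiratory complex I, was at 11.3 and 10.2. NUDCD2, 0.374 kb from HMMR, was at 46.4 and 33.8. ZBTB41, the only such neighbour of ASPM, was at 6.17 and 8.91.

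**Figure D5:**
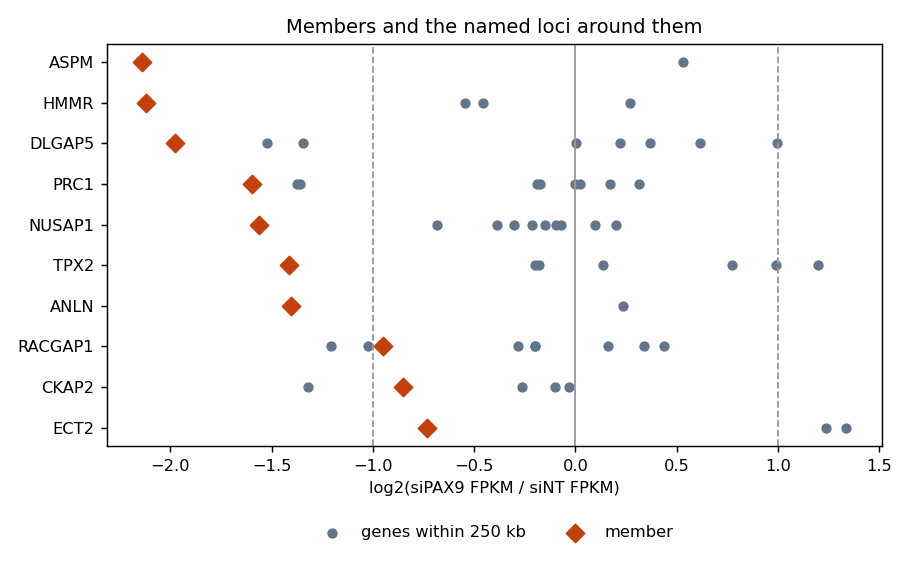
log2 change of siPAX9 over siNT (horizontal axis) for each of the 10 genes (orange diamonds) and for the other named genes within 250 kb of it (grey points) with a mean of at least 1 FPKM. Dashed lines are 2-fold, and of the 49 neighbouring genes 7 lie at or left of the lower line.

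Some rows may share reads with a member. The antisense HMMR-AS1 lies within the HMMR locus and was at 1.04 FPKM in siNT and 0.187 in siPAX9, and PRC1-AS1 lies within the PRC1 locus at 0.354 and 0.265. Whether counting used the strand is not given in the sources used here, so the reads of a gene and of its antisense partner cannot be told apart. ANLN shares its locus span with KIAA0895, which was at 7.32 and 8.62. In GENCODE, NUSAP1 overlaps OIP5 and OIP5-AS1, although their deposited loci lie apart from that of NUSAP1. RACGAP1P, a pseudogene copy of RACGAP1, was at 3.82 in siNT and 2.02 in siPAX9, a log2 change of -0.92, and the value of RACGAP1 is uncertain where reads were split between the 2.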

How the data were processed

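The authors sequenced poly(A)+ RNA of 3 siNT and 3 siPAX9 samples from 1 end. In Partek Flow, Bowtie 2 placed the reads on UCSC hg19 and Cufflinks gave the transcript levels. The deposited table of 41656 loci holds 1 FPKM per group from the authors. How the samples were combined and the libraries scaled to each other is not given in the sources used here, and the number of fragments behind each pooled value is unknown. The study's methods state a range of total reads over the libraries, which does not give that number. The table also holds the authors' own log2 fold change, test statistic, p-value and q-value, which were not used.

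Symbols were split at commas, the row with the highest mean FPKM was kept per symbol, and log2(siPAX9/siNT) was taken without a pseudocount. Genes with a mean FPKM of at least 1 formed the background, and a change of at least 2-fold was counted. Locus starts were raised by 1 to count from 1. Septin symbols that a spreadsheet had turned into dates were recovered where the locus overlapped that septin in GENCODE release 44 on GRCh37. Promoter sequences came from RefSeq (GRCh38.p14) and were matched by symbol, and no coordinates were moved between builds. The members and the lists were chosen with earlier results of these data known, so no list is independent evidence. From each division and cell cycle list the 3 lowest log2 changes, the highest and any gene at least 2-fold higher were named, with TUBB, TUBA1B, RHOA, KIF23, FOXM1, MYBL2 and CDKN1A in any case, and all cell type markers were named. Partner pairs, neighbouring loci, the promoter letters in the lists, and OIP5, NDUFAF1, NUDCD2, ZBTB41, CKAP2L, CENPI, MCM10 and GINS4 were chosen after values were seen. Protein sequences were not analysed here. The functions were tested on simulated data, in Python 3.11.15. The packages were numpy 2.4.6, matplotlib 3.10.9 and pandas 2.3.3. The alternatives were 1 added to each FPKM, centring, fold thresholds of 1.5 and 4, other filters on low values, counting by locus, and only rows with status OK.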

Additional observations from a re-analysis of the deposited data

How the results depend on the processing

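All 10 genes were lower in siPAX9 under each alternative run. The count at least 2-fold lower was 7 under every alternative except the fold thresholds, with 10 at 1.5-fold and 2 (ASPM and HMMR) at 4-fold. The median log2 change of the 10 was -1.38 with 1 added to each FPKM and -1.42 after centring. Over the same 13264 genes, 2221 were lower and 1812 higher at 1.5-fold, and 207 and 363 at 4-fold. At 2-fold, 565 were lower and 427 higher with a mean FPKM of at least 5. With no filter, over 26822 symbols, the counts were 1504 and 2537. The number of genes left by the minimum of 5 is not given, so counts with that minimum give no share. With that FPKM minimum of 5, genes at least 2-fold lower numbered 10 in the kinetochore list, 8 in the spindle assembly list, 8 in the replication list and 0 in the contractile ring list, since fewer genes were then counted. With 1 added, the replication list had 8 and the augmin and gamma-tubulin list 0, and at 1.5-fold they had 26 and 12. No paired analysis was possible because the table holds 1 value per group, and for the same reason no sample could be left out. The precision of each FPKM is unknown.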

Other observations

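Of the 49 named genes within 250 kb of the spindle and cytokinesis genes, those at least 2-fold lower or higher on the pooled values were spread over 6 of the 10 neighbourhoods. On chromosome 15, RCCD1, 2.77 kb from PRC1, was at 11.6 FPKM in siNT and 4.47 in siPAX9, and the helicase gene BLM, 150.4 kb from PRC1, was at 2.21 and 0.861. Near DLGAP5, WDHD1, which works at the replication fork, was at 3.48 and 1.37, and GCH1, the first enzyme of tetrahydrobiopterin synthesis, at 17.3 and 6.02. The chromatin remodelling subunit SMARCD1 (23.4 and 11.5) and the ion channel gene ASIC1 (1.80 and 0.782) lay near RACGAP1, and HNRNPA1L2, a close copy of HNRNPA1 whose reads may be shared, was at 67.4 and 27.0 near CKAP2. The 3 higher genes were ID1, an inhibitor of differentiation factors, near TPX2 (91.9 and 210.97), and the cytokine gene TNFSF10 (3.82 and 9.65) and the hydrolase gene NCEH1 (4.68 and 11.0), both near ECT2. These genes were chosen after their values were seen, and the differences have no error.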
